A study of Homo sapiens with 18 samples.

Results

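The 37 genes described here are known targets of the transcription factor NRF2 that encode antioxidant and detoxifying proteins. They were taken by gene name from the 58870 genes of the count table, by a rule that uses no measured value. The genes and groups were, however, chosen with earlier results of these data known, so the shares below are descriptive. They were divided by the role of their products into glutathione (7 genes), thioredoxin (5), NADPH (4), iron and heme (4), efflux (4), carbonyl, quinone and conjugation (10) and other (3) groups. RNA sequencing covered the human melanoma cell lines WM164, SKMEL28 and A375, each overexpressing either MAFG or, as the control, GFP, with 3 libraries per condition and 18 in all. Per the study's methods, cells were transduced with lentiviral vectors that express Myc-DDK-tagged MAFG or GFP and carry blasticidin resistance, so that both conditions hold a vector. Nothing in the labels says that the libraries came from separate cultures, and the p-values therefore measure only the spread between these libraries. Total counts per library ranged from 20122172 to 39025042, and edgeR's filter on low counts left 30 of the 37 genes to be tested in WM164 and 33 each in SKMEL28 and A375. GPX2, a gastrointestinal glutathione peroxidase, had 0 counts in every library, and AKR1B10, an aldo-keto reductase, had at most 4 counts, so that neither was tested in any line.

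NRF2, encoded by NFE2L2, is held at low levels by KEAP1, which marks it for degradation, and is released by electrophiles and oxidants. It binds DNA only as a dimer with a small MAF protein (MAFF, MAFG or MAFK) at the antioxidant response element (ARE). Small MAF proteins have no activation domain of their own, so that their homodimers or their dimers with BACH1 can occupy the same element without activating it. The targets make and recycle glutathione and thioredoxin, supply NADPH, break down heme and store iron, reduce quinones and carbonyls, and export conjugates from the cell. The comparison of MAFG with GFP in each line asked how the mRNA of these genes stood when the obligate partner of NRF2 was overexpressed.

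The core of the ARE, TGACNNNGC on either strand, was searched from 1000 bases before to 100 bases after the annotated start of each gene (GENCODE release 44, build hg38), because it is the sequence to which NRF2 and small MAF proteins bind. It was found for 22 of the 37 genes (59.5%), against 35.8% of all 20046 protein-coding genes. The stricter form TGACTCAGC, which also holds the AP-1 motif TGACTCA, was found for 7 of the 37 (18.9%), namely ABCC1, GPX4, GSTP1, ME1, NQO1, SQSTM1 and TALDO1, against 1.4% of protein-coding genes. A match is a sequence only, and no binding was measured in these libraries. The windows below show 9 of the matches, chosen because the values of these genes are described in detail or because their families are compared. The element is in capitals, with 10 bases on either side in lower case.
NQO1: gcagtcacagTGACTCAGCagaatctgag
ME1: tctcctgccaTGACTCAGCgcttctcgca
GSTP1: gccggcgccgTGACTCAGCactggggcgg
SQSTM1: ggcctggccaTGACTCAGCaatatcctca
TALDO1: acccagggacTGACTCAGCataagcggac
ABCC1: tccttctgtgTGACTCAGCtttggagtca
GCLM: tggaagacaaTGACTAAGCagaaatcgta
PRDX1: cccgccggaaTGACTCGGCgctttccctc
TXNRD1: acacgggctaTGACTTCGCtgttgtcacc

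The NQO1 window lies at chr16:69726997-69727025 on the minus strand, with the element 455 bases before the start of the gene. That of ME1 lies at chr6:83431170-83431198 on the minus strand, 137 bases before the start, and that of GSTP1 at chr11:67583736-67583764 on the plus strand, 66 bases before the start. The windows of SQSTM1 (chr5:179820543-179820571, minus strand) and TALDO1 (chr11:746501-746529, plus strand) lie 352 and 953 bases before the starts, and that of ABCC1 (chr16:15949069-15949097, plus strand) 537 bases before. The windows of GCLM (chr1:93909446-93909474, plus strand), PRDX1 (chr1:45522007-45522035, plus strand) and TXNRD1 (chr12:104215670-104215698, plus strand) lie 34, 141 and 99 bases before the starts. These distances run from the start of the gene's canonical transcript to the base of the element that comes first in the direction of the gene. For an element on the opposite strand this is the last base of the element as printed. The elements of SQSTM1, GCLM and PRDX1 are on the strand opposite to the gene and the other 6 on the strand of the gene.

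**Figure D1:**
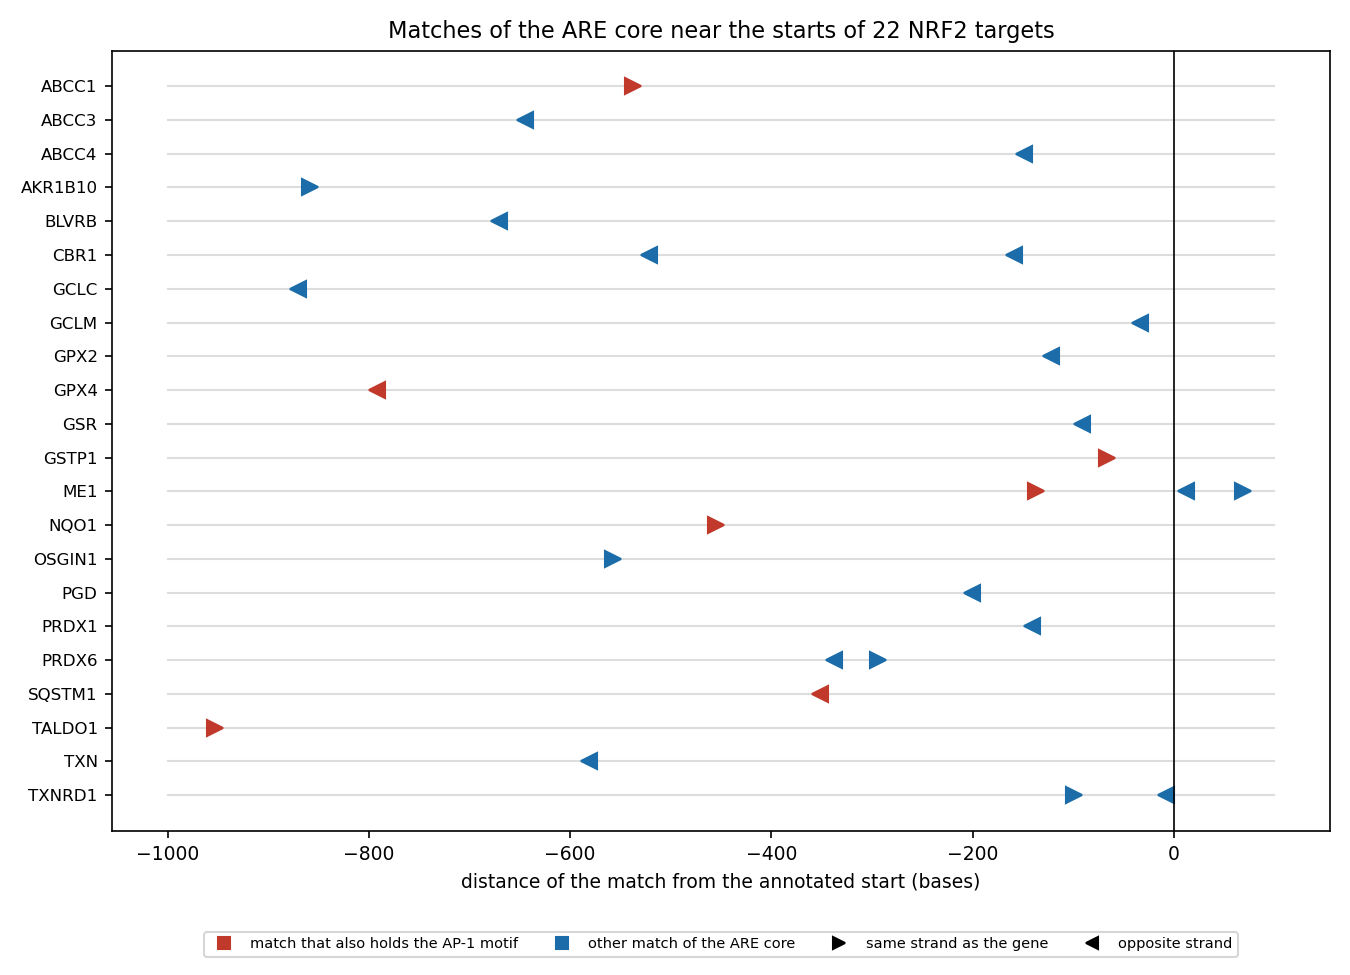
Matches of the ARE core in the windows of 22 genes, with the distance from the annotated start in bases on the x axis and one row per gene, and with the triangle pointing along the strand of the match. Matches that also hold the AP-1 motif (red) were found in 7 of the rows, the nearest 66 bases before the start, in GSTP1.

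MAFG mRNA, the check of the labels, was higher in each MAFG library than in each GFP library of the same line. In WM164 its mean was 24.4 ± 2.71 CPM with GFP and 50.1 ± 4.43 CPM with MAFG (counts per 1000000 of the normalized library, SD, n = 3). The log2 fold change was 1.04 (SE 0.09), with an adjusted p = 6.37e-08 (edgeR's quasi-likelihood F test, adjusted by Benjamini and Hochberg over all tested genes). In SKMEL28 cells the log2 fold change was 0.64 (SE 0.10, adjusted p = 0.000128, edgeR) and in A375 cells it was 0.80 (SE 0.17), which missed the threshold (adjusted p = 0.0655, edgeR). On the log2(TPM + 1) scale of the deposited TPM values the log2 fold changes of MAFG were larger, at 2.71, 1.86 and 2.33 in the same order of lines, and all passed (adjusted p = 1.02e-06, 0.000286 and 0.000643, limma). In A375 cells the libraries of a group differed more from each other than in the other lines, and the first MAFG library lay farthest from the other 2 of its group, with a median absolute difference of 0.291 on the log2 CPM scale over 13903 genes. This difference was 0.126 to 0.218 for the other A375 libraries and at most 0.137 for those of WM164 and SKMEL28.

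The 8 marker genes of melanocytic cells summed to 4450 to 4740 CPM with GFP and 2490 to 2620 CPM with MAFG in WM164, and to 4640 to 4880 and 4050 to 4260 CPM in SKMEL28. Single markers moved apart in SKMEL28, where PMEL, MITF and TYR were lower, S100B and TYRP1 higher, and MLANA, DCT and SOX10 not called (edgeR). In A375 cells the 8 genes summed to 40 to 47 CPM with GFP and 136 to 185 CPM with MAFG. MITF was not called there, at 31.8 CPM with GFP and 30.3 CPM with MAFG. MLANA and TYR were at 0 in every A375 library. SOX10, a transcription factor of the melanocytic lineage, rose there from 9.84 ± 2.64 to 125.9 ± 23.1 CPM (SD, n = 3, adjusted p = 2.12e-05, edgeR). Markers of leukocytes, endothelial cells and keratinocytes (4 each) summed to at most 1.63, 2.33 and 0.787 CPM in any library. The 4 fibroblast markers summed to 18.9 to 19.2 CPM with GFP and 11.5 to 12 CPM with MAFG in WM164, to 10.5 to 11.9 and 17.5 to 20.3 CPM in SKMEL28, and in A375 to 11.7 to 15.3 CPM. The part of these differences in the results below was not tested.

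MAFG overexpression lowered more NRF2 targets than it raised in WM164 and SKMEL28 cells, and most of these changes were below 2-fold. Lower targets in WM164 numbered 15 of 30 tested (50%) and higher ones 3 (10%), against 15.6% lower and 16.2% higher among all tested genes. Of the 33 genes tested in SKMEL28 cells, 18 were lower (54.5%) and 3 higher (9.09%), against 15.3% lower and 14.6% higher among all tested genes. In A375 cells, 1 of 33 was lower and 0 were higher by edgeR, against 0.0634% lower and 0.78% higher among all tested genes. DESeq2 called 2 lower and 0 higher there, against 0.144% lower and 1.18% higher among its genes with an adjusted p. At an unadjusted p under 0.05 (edgeR), 5 were lower and 1 higher in A375, against 2.01% lower and 4.25% higher among all tested genes. Tested targets had a median log2 fold change of -0.26 (WM164), -0.24 (SKMEL28) and -0.08 (A375). The median of all tested genes lay at -0.0015, -0.0080 and -0.0004. In bulk RNA, a change in the share of cells that express a gene and a change in the RNA of each cell cannot be told apart.

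On the TPM scales the median of all genes was itself displaced, on log2(TPM + 1) by 0.14 (WM164), -0.14 (SKMEL28) and -0.10 (A375). The number of lowered targets in WM164 was then 6, with 4 higher, against 2.91% lower and 12.6% higher among all genes on that scale. In SKMEL28 it was 15, with 1 higher, against 16.8% lower and 3.74% higher. Relative to the median of all genes the median of the targets remained below it, by -0.22, -0.19 and -0.09 in the 3 lines. With each library centred on the median of the tested genes, a setting added after that displacement was seen, 12 targets were lower and 2 higher in WM164, against 9.7% and 9.79% of all genes, and 11 lower and 2 higher in SKMEL28 cells, against 7.69% and 9.54%. Of the 18 calls of WM164, 9 were lost on log2(TPM + 1), those of GSR, GPX4, GSTP1, PGD, TKT, HMOX1, ABCC2, NQO1 and AKR1B1. Of the 21 calls of SKMEL28, 4 were lost there, those of GSR, TXN, TALDO1 and OSGIN1, and AKR1C2 had no value. In an edgeR model of all 18 libraries the calls of GPX4, TKT, HMOX1 and AKR1B1 in WM164 were lost, and those of GSR, GSTM3, TALDO1, TKT, FTH1, AKR1C2 and OSGIN1 in SKMEL28. Of the 56 values that were not called, 21 changed sign on a TPM scale and 17 with a single library left out, so that the signs given below for uncalled values are not directions.

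All MAFG libraries lay on one side of all GFP libraries for 20 of 30 tested targets in WM164, 26 of 33 in SKMEL28 and 9 of 33 in A375, against 43.4%, 43% and 12.8% of all tested genes. Fold changes above 2 that passed the edgeR test were found for 2 targets in SKMEL28, NQO1 and AKR1C2, and for 0 in WM164 and A375, against 6.94% of all tested genes in WM164, 4.74% in SKMEL28 and 0.665% in A375. Of the 30 targets tested in both WM164 and SKMEL28, 12 were lower in both and 0 higher in both by edgeR, against 4.94% and 3.66% of all genes tested in both. ME1 went in opposite directions in these lines, as did 4.49% of all genes. Of the 35 targets tested in at least 1 line, 9 were called in no line, against 57.2% of all such genes. NQO1 alone was called in all 3 lines by edgeR fitted to each line, against 0.374% of the genes tested in all 3, and FTL was so too by DESeq2, in the model of 18 libraries and with no count filter.

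**Figure D2:**
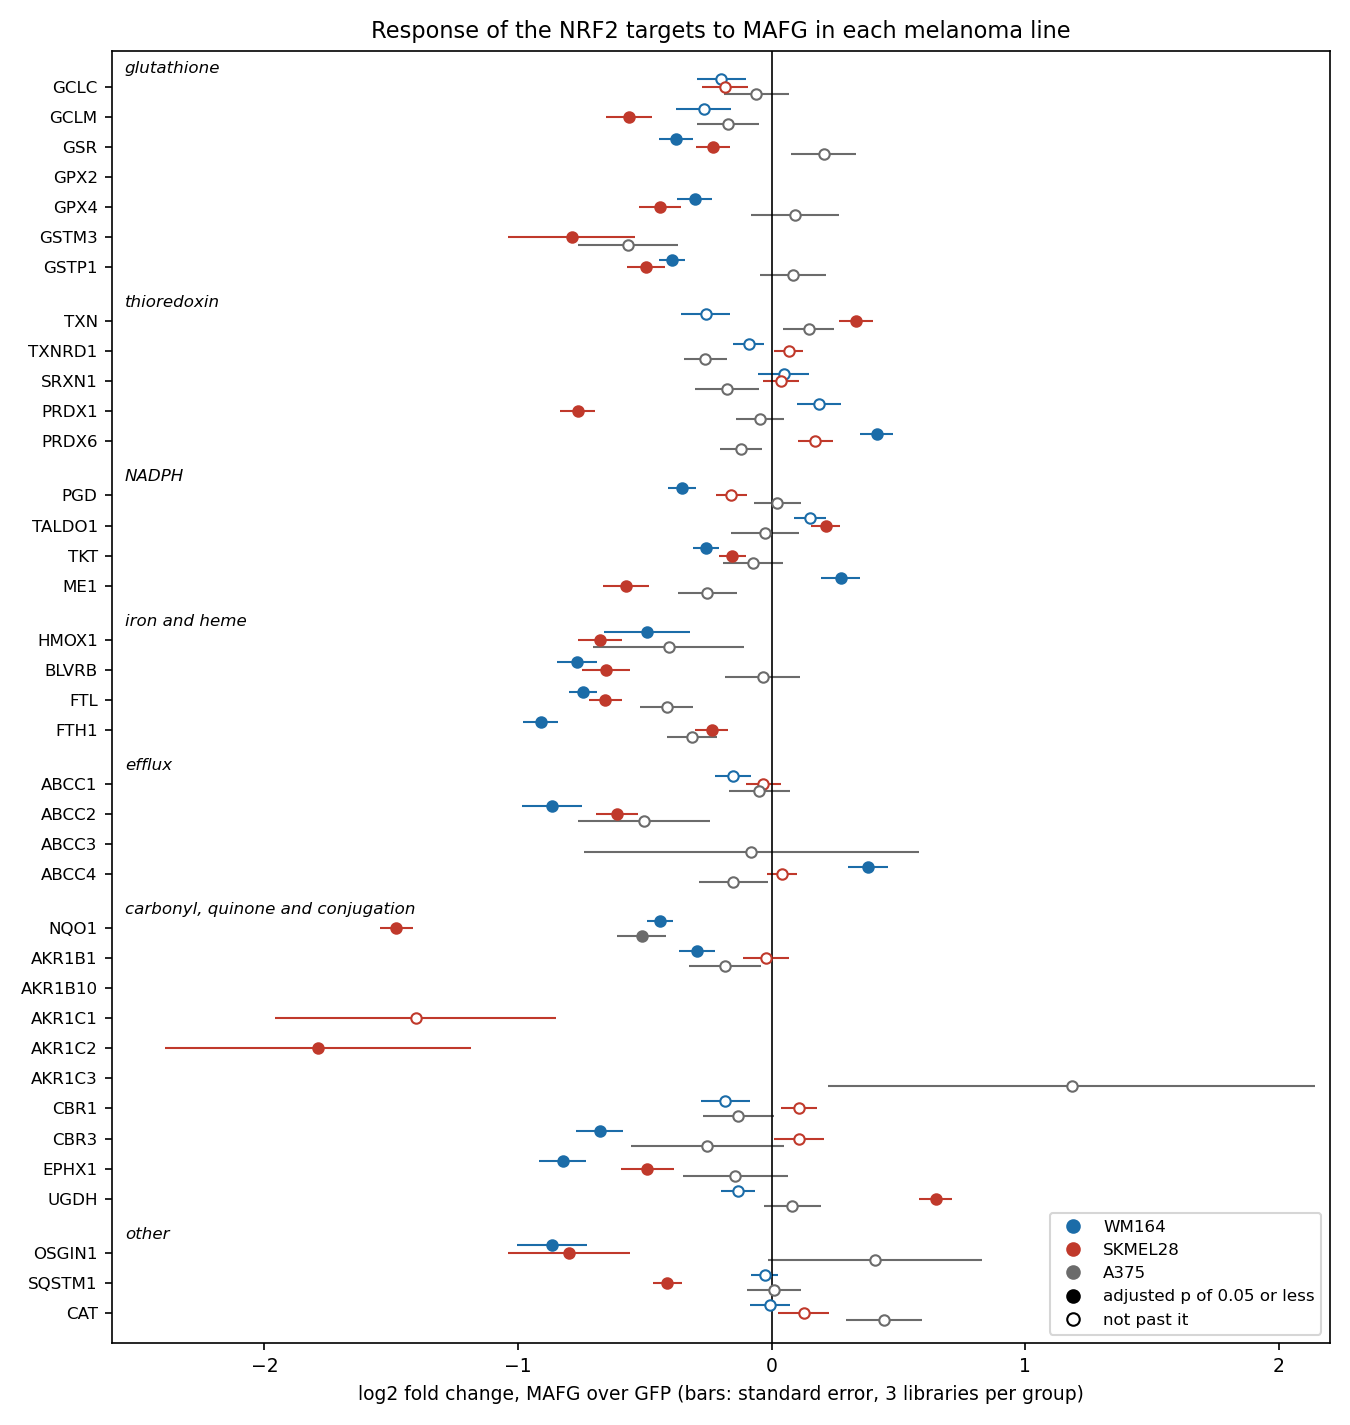
Log2 fold change of MAFG over GFP (x axis) for each gene (rows, by group) in each line, with the standard error as bars, filled where the adjusted p was 0.05 or less and open where it was not. Filled points of WM164 and SKMEL28 cells lie mostly left of 0, with all 4 genes of iron and heme there, and NQO1 of SKMEL28 lies at -1.48.

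NQO1 (chr16:69706996-69726668, hg38), the quinone reductase that is the most used readout of NRF2 activity, fell in all 3 lines and fell most in SKMEL28 cells. The GFP libraries of SKMEL28 held 412, 401 and 430.0 CPM and the MAFG libraries 146, 162 and 137 CPM. All MAFG libraries were below all GFP libraries by more than 2-fold. The log2 fold change was -1.48 (SE 0.07, adjusted p = 1.84e-10, edgeR), the only fold above 2 among the well expressed targets. In WM164 cells NQO1 was at 226, 240.0 and 239 CPM with GFP and at 174, 175 and 170.4 CPM with MAFG, a log2 fold change of -0.44 (SE 0.05, adjusted p = 3.06e-06, edgeR). In A375 cells it was at 282, 282.5 and 260.2 CPM with GFP and at 209.6, 181 and 187 CPM with MAFG, a log2 fold change of -0.51 (SE 0.10, adjusted p = 0.0433, edgeR). The groups were thus separate in every line. The A375 call was lost without GFP libraries 1, 2 or 3 or MAFG libraries 2 or 3 (adjusted p from 0.121 to 0.271, edgeR) and on the TPM scales. An unnamed gene on the opposite strand covers 19.4% of the exon bases of NQO1.

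**Figure D3:**
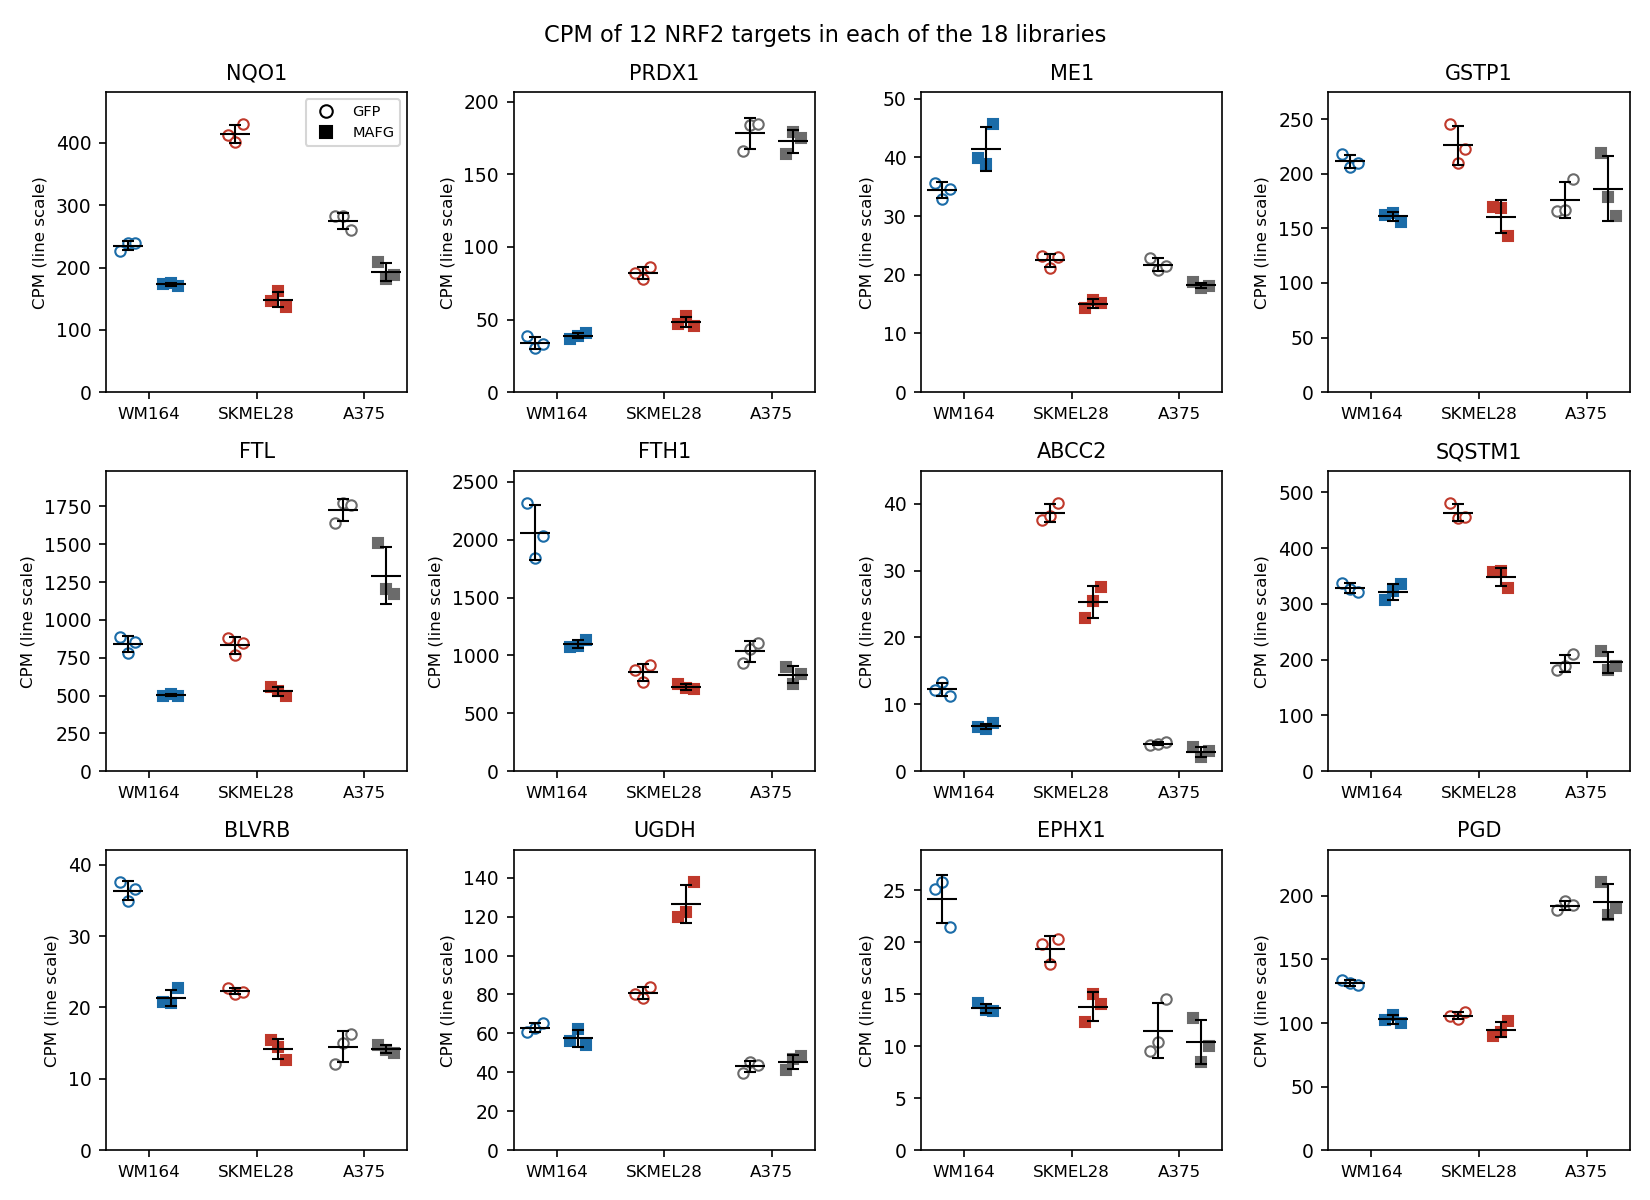
CPM of 12 genes in each library (y axis, from 0, scaled by each line's own normalization), by line, with GFP as open circles and MAFG as filled squares, and the mean and SD of 3 libraries in black. NQO1 and FTL are lower in each MAFG library of every line, ME1 is higher with MAFG in WM164 and lower in SKMEL28, and UGDH is higher in SKMEL28.

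Genes of iron and heme fell in WM164 and SKMEL28, 4 of 4 in WM164 and 4 of 4 in SKMEL28, while 0 of 4 were called in A375 (edgeR, with 2 lower at an unadjusted p under 0.05, and with FTL called by DESeq2). Of all tested genes, edgeR called 15.6% lower in WM164, 15.3% in SKMEL28 and 0.0634% in A375, where 2.01% were lower at an unadjusted p under 0.05. FTL (chr19:48965309-48966879), the light chain of the iron store ferritin, had the smallest adjusted p of the group. Its GFP libraries in WM164 held 887, 781 and 850.5 CPM and its MAFG libraries 498, 511 and 496 CPM, a log2 fold change of -0.74 (SE 0.06, adjusted p = 8.36e-09, edgeR). The spread among the MAFG libraries was small there, and the groups were far apart. In SKMEL28 cells FTL was at 878, 769.9 and 850.1 CPM with GFP and at 558, 529.9 and 498 CPM with MAFG, a log2 fold change of -0.66 (SE 0.06, adjusted p = 1.54e-06, edgeR). In A375 cells the values were 1639, 1771 and 1758 CPM with GFP and 1506, 1204 and 1168 CPM with MAFG, which did not overlap but missed the threshold (log2 fold change -0.41, SE 0.11, adjusted p = 0.172, edgeR). Without the first MAFG library of A375, the highest of its group, the values were -0.54 for FTL and -0.38 for FTH1, and both passed (adjusted p = 0.000852 and 0.0337, edgeR).

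FTH1 (chr11:61959718-61967634), the heavy chain that oxidizes iron for storage, fell from 2063 ± 239 to 1098 ± 34.1 CPM in WM164 cells (SD, n = 3), a log2 fold change of -0.91 (SE 0.07, adjusted p = 1.01e-08, edgeR). In SKMEL28 cells the fall was small, from 856 ± 74.4 to 727 ± 22.9 CPM (log2 fold change -0.24, SE 0.07, adjusted p = 0.0120, edgeR), and it missed the threshold without GFP libraries 1 or 3 or MAFG library 2 (edgeR's adjusted p = 0.0564, 0.0603 and 0.0581). BEST1 overlaps 63.2% of the exon bases of FTH1 on the opposite strand, and 25 rows of the table are FTH1 pseudogenes and 16 FTL pseudogenes, with which reads could be shared. BLVRB, a reductase of biliverdin, fell by 0.77 on the log2 scale in WM164 and by 0.65 in SKMEL28 (SE 0.08 and 0.10, adjusted p = 5.05e-07 and 8.95e-05, edgeR) and had a value of -0.04 in A375 (SE 0.15). HMOX1, the heme oxygenase that releases iron from heme, fell from 34.9 ± 2.04 to 21.8 ± 1.79 CPM in SKMEL28 (log2 fold change -0.68, SE 0.09, adjusted p = 2.11e-05, edgeR). In WM164 cells HMOX1 was low, at 7.67 ± 1.06 CPM with GFP and 5.45 ± 1.34 with MAFG, and its libraries overlapped. Its call (log2 fold change -0.49, SE 0.17, adjusted p = 0.0346, edgeR) was lost under DESeq2 (adjusted p = 0.0673) and without GFP libraries 1 or 3 or MAFG libraries 2 or 3 (adjusted p from 0.0631 to 0.15, edgeR).

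Of the genes of glutathione, 3 of 5 tested were lower in WM164 and 5 of 6 in SKMEL28, and 0 were higher in either line by edgeR or DESeq2, also at an unadjusted p under 0.05. Among all genes, DESeq2 called 12.3% higher in WM164 and 12.7% in SKMEL28, and 20.6% and 19.3% were higher at an unadjusted p under 0.05 (edgeR). The shares called lower by edgeR were 15.6% in WM164 and 15.3% in SKMEL28. GSTP1 (chr11:67583742-67586656), a glutathione transferase of the pi class, was at 218, 206 and 209.5 CPM with GFP and at 162.5, 164 and 156 CPM with MAFG in WM164 cells (log2 fold change -0.39, SE 0.05, adjusted p = 1.30e-05, edgeR). In SKMEL28 cells it was at 245, 210.1 and 222 CPM with GFP and at 169, 169 and 143 CPM with MAFG (log2 fold change -0.49, SE 0.07, adjusted p = 0.000102, edgeR). The MAFG libraries lay below the GFP libraries in both lines. In A375 cells the values overlapped, at 166, 167 and 195 CPM with GFP and 219, 178 and 161 CPM with MAFG. GCLC and GCLM encode the catalytic and modifier subunits of the enzyme that limits glutathione synthesis. GCLM fell in SKMEL28, from 28.6 ± 1.49 to 19.3 ± 1.74 CPM (log2 fold change -0.56, SE 0.09, adjusted p = 0.000200, edgeR), and had values of -0.27 in WM164 and -0.17 in A375 that were not called. GCLC passed in no line, with log2 fold changes of -0.20, -0.18 and -0.06 (adjusted p from 0.132 to 0.997, edgeR), and on log2(TPM + 1) its values in WM164 and A375 were above 0.

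GSR, the reductase of oxidized glutathione, fell by 0.38 on the log2 scale in WM164 (SE 0.07, adjusted p = 0.000248, edgeR) and by 0.23 in SKMEL28 (SE 0.07, adjusted p = 0.0167, edgeR). The SKMEL28 call was lost without GFP library 3 or MAFG library 2 (edgeR's adjusted p = 0.0903 and 0.0571). On the log2(TPM + 1) scale GSR in WM164 lay at 0.01 (adjusted p = 0.957, limma), the opposite sign. GPX4, the peroxidase that removes lipid hydroperoxides, fell by 0.30 in WM164 and by 0.44 in SKMEL28 (SE 0.07 and 0.08, adjusted p = 0.00247 and 0.000702, edgeR). Its WM164 call was lost in the model of 18 libraries (adjusted p = 0.172, edgeR) and on log2(TPM + 1), where it lay at -0.13 (adjusted p = 0.506, limma). GSTM3, a transferase of the mu class whose paralogs could share its reads, fell by 0.79 in SKMEL28 (SE 0.25, adjusted p = 0.0258, edgeR). That call was lost without GFP libraries 1 or 2 or MAFG library 2 (adjusted p from 0.0523 to 0.119, edgeR). GSTM3 had 0 counts in each GFP library of WM164. In A375 cells 0 of the 6 tested genes of glutathione passed (edgeR and DESeq2), 1 being lower at an unadjusted p under 0.05, and the first MAFG library there held the highest GSTP1 value of its line.

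Thioredoxin genes moved in both directions. PRDX1 (chr1:45510914-45542732), a peroxiredoxin that reduces hydrogen peroxide, was at 82.0, 78.1 and 86.2 CPM with GFP and at 47.1, 52.5 and 45.4 CPM with MAFG in SKMEL28 cells, with no overlap (log2 fold change -0.77, SE 0.07, adjusted p = 6.49e-07, edgeR). In WM164 the values were 38.5, 30.3 and 33.3 CPM with GFP and 36.9, 38.8 and 40.4 CPM with MAFG (log2 fold change 0.19, SE 0.09, adjusted p = 0.113, edgeR). In A375 they were 166, 184 and 184.5 CPM with GFP and 164, 179 and 175 CPM with MAFG. The groups overlapped in the latter 2 lines. MMACHC covers 29.8% of the exon bases of PRDX1 on the opposite strand. PRDX6, a peroxiredoxin with a single active cysteine, rose in WM164 from 94.2 ± 6.84 to 125 ± 7.68 CPM (log2 fold change 0.41, SE 0.06, adjusted p = 7.91e-05, edgeR). TXN, thioredoxin itself, rose in SKMEL28 from 64.9 ± 5.53 to 81.8 ± 1.60 CPM (log2 fold change 0.33, SE 0.07, adjusted p = 0.00139, edgeR) and had a value of -0.26 in WM164 (adjusted p = 0.0517, edgeR). TXNRD1, the reductase that recycles thioredoxin, and SRXN1, which repairs overoxidized peroxiredoxins, passed in no line fitted alone. TXNRD1 passed in A375 in the edgeR model of 18 libraries (-0.26, adjusted p = 0.0430). The log2 fold changes of the lines fitted alone lay between -0.26 and 0.07 for TXNRD1 and between -0.18 and 0.05 for SRXN1. An unnamed gene on the same strand covers 90.7% of the exon bases of SRXN1.

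NADPH is supplied by the pentose phosphate enzyme PGD and by malic enzyme ME1, and TKT and TALDO1 run the branch of the pentose phosphate pathway that returns sugars to glycolysis. PGD (chr1:10398592-10420511) was at 134, 131 and 129.6 CPM with GFP and at 102, 107 and 100.1 CPM with MAFG in WM164 (log2 fold change -0.35, SE 0.05, adjusted p = 5.84e-05, edgeR). The groups were separate in WM164. In SKMEL28 the values of PGD were 106, 103 and 109 CPM with GFP and 89.96, 92.8 and 102 CPM with MAFG (log2 fold change -0.16, SE 0.06, adjusted p = 0.0618, edgeR). In A375 they were 189, 196 and 192.5 CPM with GFP and 211, 185 and 190.3 CPM with MAFG.

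ME1 (chr6:83210402-83431051) was the only target with calls of opposite sign. In WM164 it was at 35.6, 32.9 and 34.6 CPM with GFP and at 39.8, 38.8 and 45.7 CPM with MAFG. This was a rise of 0.27 on the log2 scale (SE 0.08, adjusted p = 0.0128, edgeR) that missed the threshold without MAFG library 3 (0.18, adjusted p = 0.109, edgeR). In SKMEL28 it was at 23.1, 21.2 and 23.0 CPM with GFP and at 14.3, 15.7 and 15.3 CPM with MAFG, a log2 fold change of -0.58 (SE 0.09, adjusted p = 0.000170, edgeR). In A375 it was at 22.9, 20.8 and 21.4 CPM with GFP and at 18.7, 17.8 and 18.03 CPM with MAFG, which did not overlap but were not called (log2 fold change -0.25, SE 0.12, adjusted p = 0.808, edgeR). TKT fell in WM164 (log2 fold change -0.26, SE 0.05, adjusted p = 0.000937, edgeR), a call lost in the model of 18 libraries (adjusted p = 0.0693, edgeR) and on log2(TPM + 1), where it lay at -0.07. It also fell in SKMEL28 (-0.16, SE 0.05, adjusted p = 0.0341, edgeR), where the call was lost without GFP libraries 1 or 3 or any of the MAFG libraries (adjusted p from 0.0717 to 0.101, edgeR). TALDO1 rose in SKMEL28 by 0.21 on the log2 scale (SE 0.06, adjusted p = 0.00948, edgeR), and was at 0.05 on the log2(TPM + 1) scale.

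Among the efflux pumps, ABCC2 (chr10:99782640-99852594), which exports glutathione and glucuronide conjugates, fell in WM164 and SKMEL28. It was at 12.1, 13.3 and 11.3 CPM with GFP and at 6.62, 6.36 and 7.16 CPM with MAFG in WM164 (log2 fold change -0.87, SE 0.12, adjusted p = 1.67e-05, edgeR). In SKMEL28 it was at 37.6, 38.2 and 40.1 CPM with GFP and at 22.9, 25.5 and 27.6 CPM with MAFG (log2 fold change -0.61, SE 0.08, adjusted p = 3.92e-05, edgeR). All MAFG libraries were below all GFP libraries in both. In A375 the values were low, at 3.90, 4.07 and 4.32 CPM with GFP and 3.60, 2.11 and 2.94 CPM with MAFG (log2 fold change -0.50, SE 0.26, adjusted p = 0.898, edgeR). On the log2(TPM + 1) scale the WM164 value was -0.20 and missed the threshold (adjusted p = 0.407, limma). ABCC4, a pump of cyclic nucleotides and conjugates, rose in WM164 from 31.3 ± 2.96 to 40.6 ± 0.955 CPM (log2 fold change 0.38, SE 0.08, adjusted p = 0.00112, edgeR). ABCC1 passed in no line (log2 fold changes of -0.15, -0.03 and -0.05). ABCC3 was tested only in A375, where it was at 1.15 ± 0.384 CPM with GFP and 1.09 ± 0.838 with MAFG.

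Of the enzymes of carbonyls, quinones and conjugation, 4 of 6 tested were lower in WM164, against 15.6% of all tested genes. In SKMEL28, 3 of 8 were lower and 1 higher (12.5%), against 15.3% lower and 14.6% higher among all tested genes. EPHX1, the microsomal epoxide hydrolase, fell in both lines, from 24.1 ± 2.30 to 13.7 ± 0.419 CPM in WM164 (log2 fold change -0.82, SE 0.09, adjusted p = 1.76e-06, edgeR) and from 19.3 ± 1.27 to 13.8 ± 1.37 CPM in SKMEL28 (-0.49, SE 0.10, adjusted p = 0.00199, edgeR). CBR3, a carbonyl reductase of which CBR3-AS1 covers 71.1% of the exon bases on the opposite strand, fell in WM164 by 0.68 on the log2 scale (SE 0.09, adjusted p = 1.43e-05, edgeR) and had a value of 0.11 in SKMEL28. AKR1B1, aldose reductase, fell in WM164 by 0.29 (SE 0.07, adjusted p = 0.00407, edgeR), a call lost in the model of 18 libraries (adjusted p = 0.0901, edgeR) and on log2(TPM + 1), where it lay at -0.15. CBR1, another carbonyl reductase, passed in no line. UGDH (chr4:39498755-39528311), which makes the UDP-glucuronate used in conjugation, rose in SKMEL28 from 80.8 ± 3.07 to 127 ± 9.77 CPM (log2 fold change 0.65, SE 0.07, adjusted p = 2.12e-06, edgeR), the largest rise of a target in any line that passed the test. It had values of -0.13 in WM164 and 0.08 in A375.

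The aldo-keto reductases AKR1C1, AKR1C2 and AKR1C3, which reduce steroids and carbonyls, were close to the limit of detection, and reads of these near-identical paralogs could have been split or lost in counting. AKR1C2 (chr10:4987775-5018031) in SKMEL28 had 13, 19 and 30 counts with GFP and 4, 6 and 9 with MAFG, or 0.414, 0.888 and 0.993 against 0.128, 0.205 and 0.323 CPM, with no overlap. The log2 fold change was -1.79 (SE 0.60, adjusted p = 0.0342, edgeR), and it was not called by DESeq2 (adjusted p = 0.0571) or, by edgeR, without GFP libraries 2 or 3 or MAFG libraries 1 or 2 (adjusted p from 0.0917 to 0.157). AKR1C1 in SKMEL28 had 33, 14 and 14 counts with GFP and 8, 9 and 7 with MAFG and was not called (adjusted p = 0.0686, edgeR). AKR1C3 was tested only in A375 (0.245 ± 0.216 CPM with GFP and 0.563 ± 0.184 with MAFG, adjusted p = 0.997, edgeR).

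SQSTM1 (chr5:179806398-179838078), the autophagy receptor p62 that also binds KEAP1, was at 480.4, 454.5 and 455 CPM with GFP and at 357, 359 and 329 CPM with MAFG in SKMEL28, with no overlap (log2 fold change -0.41, SE 0.06, adjusted p = 5.14e-05, edgeR). In WM164 the values were 337, 326 and 321 CPM with GFP and 307, 322 and 336 CPM with MAFG. In A375 they were 181, 189 and 210.1 CPM with GFP and 215.5, 181 and 188 CPM with MAFG. Both overlapped and were not called (log2 fold changes of -0.03 and 0.01). OSGIN1, an oxidative stress response gene that slows growth, fell in WM164 from 9.48 ± 1.18 to 5.19 ± 0.372 CPM (log2 fold change -0.87, SE 0.14, adjusted p = 8.68e-05, edgeR) and in SKMEL28 from 5.07 ± 1.19 to 2.90 ± 0.794 CPM (-0.80, SE 0.24, adjusted p = 0.0193, edgeR). The SKMEL28 call was lost without GFP libraries 1 or 2 or MAFG library 2 (adjusted p from 0.0736 to 0.0873, edgeR). CAT, catalase, passed in no line, at -0.01, 0.13 and 0.44 on the log2 scale.

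Targets with the stricter element were lower for 3 and higher for 1 of 7 in WM164, and lower for 5 and higher for 1 of 7 in SKMEL28 cells. Without it, 12 of 23 were lower and 2 higher in WM164, and 13 of 26 lower and 2 higher in SKMEL28. For all tested genes the shares were 15.6% lower and 16.2% higher in WM164, and 15.3% and 14.6% in SKMEL28. The medians of the log2 fold changes were -0.15 with and -0.27 without the element in WM164, and -0.44 with and -0.21 without it in SKMEL28, so that the order of the medians differed between the lines. In A375 they were -0.03 with and -0.13 without it. For the core TGACNNNGC they were -0.20 with and -0.49 without a match in WM164. The values were -0.23 and -0.36 in SKMEL28, and -0.05 and -0.18 in A375. Split by the core, targets without a match thus had the lower median in each line, so that the order depends on the element chosen. Of the targets called lower in both WM164 and SKMEL28, FTL, FTH1, HMOX1, EPHX1, ABCC2 and TKT had no match of the core in this window. GSR, GPX4, GSTP1, BLVRB, NQO1 and OSGIN1, the others called lower in both, had a match. The lack of a match says nothing of elements elsewhere.

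The responses differed between lines for a part of the targets when tested as contrasts of the log2 fold changes in one edgeR model of all 18 libraries. Between WM164 and SKMEL28, 9 of the 35 targets in this model differed, against 13.7% of all genes in it. GSTM3 was among these 9, with 0 to 4 counts in the WM164 libraries. Between WM164 and A375 there were 8, against 9.21%, and between SKMEL28 and A375 also 8, against 9.51%. The response of NQO1 was lower in SKMEL28 than in WM164 by 1.04 on the log2 scale (SE 0.11, adjusted p = 1.10e-06, edgeR) and lower than in A375 by 0.97 (SE 0.11, adjusted p = 3.53e-06, edgeR). That of PRDX1 was higher in WM164 than in SKMEL28 by 0.95 (SE 0.12, adjusted p = 1.17e-05, edgeR), and that of ME1 by 0.85 (SE 0.13, adjusted p = 9.84e-05, edgeR). The response of FTH1 was lower in WM164 than in SKMEL28 (difference -0.67, adjusted p = 0.00122, edgeR) and than in A375 (-0.60, adjusted p = 0.00397, edgeR), whereas for FTL no such difference passed. The number of differing targets between WM164 and A375 was 6 to 11 when single libraries were left out and that between SKMEL28 and A375 was 5 to 10, with 5 without the first GFP library of A375, the first GFP library of SKMEL28 or the third MAFG library of SKMEL28.

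Levels in the GFP libraries differed between the lines for most targets. In the same model, 28 of the 35 targets differed between WM164 and SKMEL28, 30 between WM164 and A375 and 31 between SKMEL28 and A375, against 56.8%, 71.5% and 68.6% of all genes in it. Levels between genes are compared as TPM, which is per length. FTH1 and FTL stood highest of the targets in every line, at 2430 and 713 TPM in WM164, 1449 and 1022 in SKMEL28 and 1432 and 1795 in A375. Of the 5 thioredoxin genes, TXN, TXNRD1, PRDX1 and PRDX6 were highest in A375 cells and SRXN1 in SKMEL28. In A375 cells TXN had 251 TPM against 99.8 in SKMEL28 and 20.8 in WM164, TXNRD1 had 106 against 41.1 and 19.6, and PRDX6 had 235 against 49.4 and 41.4. The lower 2 lines of PRDX6 stood in the other order on the CPM scale, with WM164 above SKMEL28 by 0.26 on the log2 scale (SE 0.08, adjusted p = 0.0072, edgeR). SRXN1 had 12.6 TPM in SKMEL28, 9.5 in A375 and 4.95 in WM164, and was higher in SKMEL28 than in A375 by 0.37 on the log2 CPM scale (SE 0.11, adjusted p = 0.00666, edgeR). On the CPM scale of all 18 libraries TXN was 8.37-fold higher in A375 than in WM164 (adjusted p = 1.24e-16, edgeR), TXNRD1 4.10-fold (adjusted p = 4.40e-16, edgeR) and PRDX6 4.39-fold (adjusted p = 1.73e-15, edgeR). PRDX1 had the order of TXN and TXNRD1, with 158 TPM in A375, 86.6 in SKMEL28 and 24.6 in WM164, and every step was called.

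HMOX1 was highest in SKMEL28 at 22.6 TPM, against 3.45 in WM164 and 1.89 in A375, with 11.7-fold between SKMEL28 and A375 (adjusted p = 1.03e-12, edgeR). ABCC2 had the same order, with 7.14, 1.74 and 1.06 TPM and 10.96-fold between SKMEL28 and A375 (adjusted p = 1.85e-14, edgeR). NQO1 was 1.75-fold higher in SKMEL28 than in WM164 and A375, which did not differ beyond their spread (log2 difference 0.01, SE 0.08, adjusted p = 0.951, edgeR) on the CPM scale, while their TPM values did not overlap, at 62.7 to 85.9 in WM164 and 98.4 to 125.4 in A375. GPX4 was highest in WM164, then SKMEL28, then A375 on the CPM scale, each step being called, and was 3.17-fold higher in WM164 than in A375 (adjusted p = 1.78e-09, edgeR). GSR had the same order on the CPM scale, but its TPM was highest in SKMEL28, at 19.0 against 14.7 in WM164 and 12.9 in A375. GSTM3 had 0 counts in each GFP library of WM164 and was at least 29-fold higher in SKMEL28 and at least 62-fold higher in A375, computed against 3 counts in a WM164 library. FTL did not differ between WM164 and SKMEL28, nor FTH1 between SKMEL28 and A375, beyond their spread on the CPM scale (adjusted p = 0.834 and 0.607, edgeR), although the TPM of FTL was 671 to 746.8 in WM164 and 994 to 1072 in SKMEL28.

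**Figure D4:**
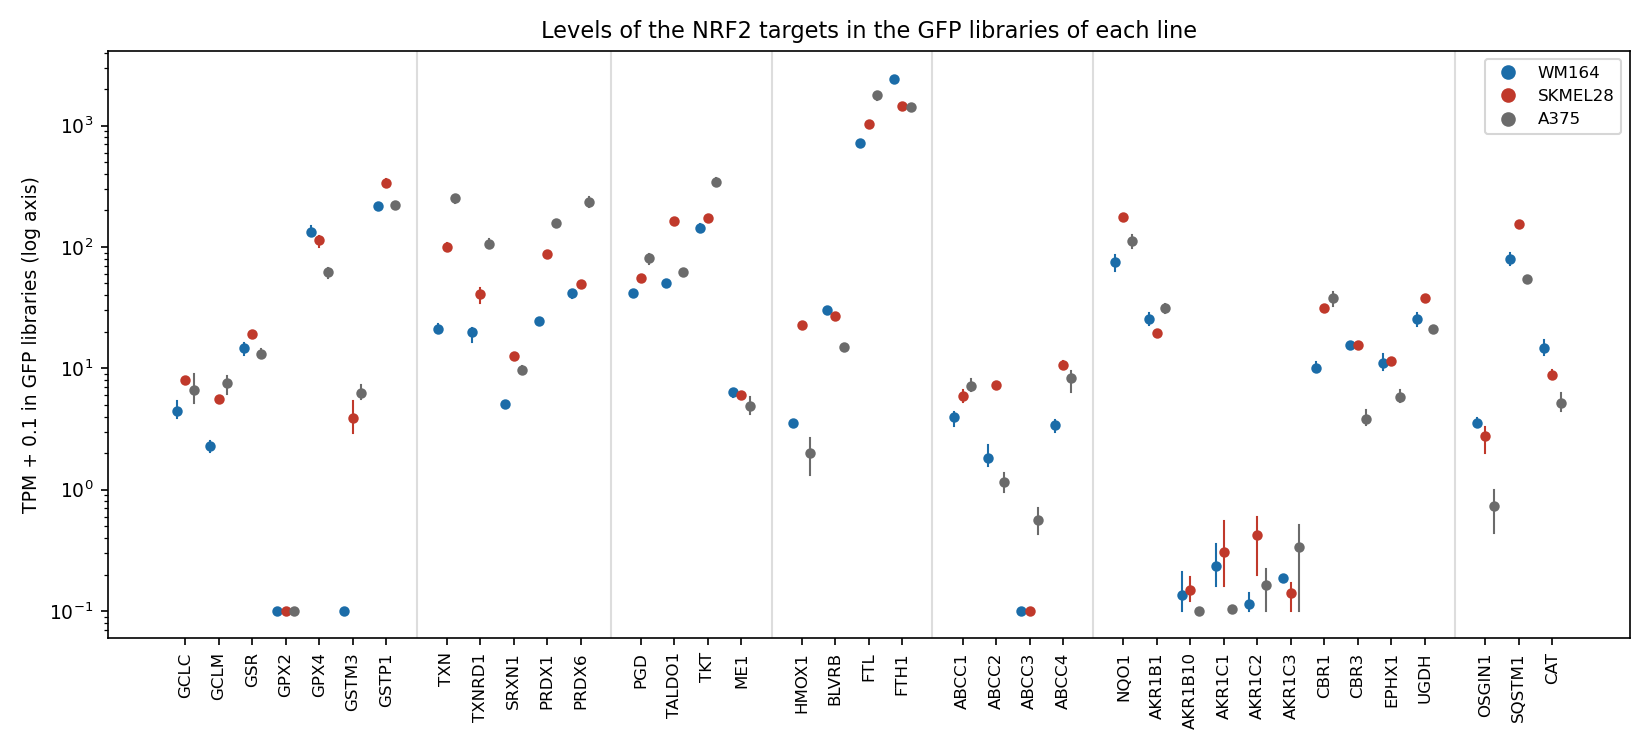
Levels of the 37 genes in the GFP libraries of each line as TPM plus 0.1 on a log axis, with the mean as a point and the range of 3 libraries as a line, and with grey lines between the groups of genes. FTL and FTH1 lie between 713 and 2430 TPM, TXN is highest in A375 at 251, and GPX2 is at 0 in every line.

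Regulators of the pathway moved in both directions. Of 11 regulators and partners of NRF2, 4 were higher and 2 lower in WM164, 4 higher and 3 lower in SKMEL28, and 0 were called in A375 (edgeR and DESeq2, with 0 also at an unadjusted p under 0.05). Among all tested genes, edgeR called 16.2% higher and 15.6% lower in WM164, and 14.6% and 15.3% in SKMEL28. The regulators stood at 36.4% higher and 18.2% lower in WM164, and at 36.4% and 27.3% in SKMEL28. NFE2L2 rose by 0.29 on the log2 scale in SKMEL28 (from 162 ± 5.77 to 198 ± 3.60 CPM, SE 0.05, adjusted p = 0.000839, edgeR) and by 0.23 in WM164, opposite to the lowered targets, and had a value of 0.15 in A375 (adjusted p = 0.997, edgeR). KEAP1 passed in no line (0.10, -0.03 and -0.06). BACH1, which competes with NRF2 for small MAF partners, rose in WM164 by 0.32 (SE 0.08, adjusted p = 0.00721, edgeR) and fell in SKMEL28 by 0.27 (SE 0.07, adjusted p = 0.0114, edgeR), and these responses differed (0.59, SE 0.14, adjusted p = 0.00599, edgeR). BACH2, a related repressor, fell by 1.72 in WM164 and by 1.803 in SKMEL28 (adjusted p = 0.000163 and 5.87e-05, edgeR), to 1.05 ± 0.339 and 1.37 ± 0.190 CPM.

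Of 35 further antioxidant genes that are not among the 37, 10 of 29 tested were lower and 3 higher in WM164, 10 of 29 lower and 6 higher in SKMEL28, and 0 of 31 were called in A375 (edgeR and DESeq2), with 1 higher and 1 lower at an unadjusted p under 0.05. SOD2 is on this list but had no value in any line, so it was not tested. The shares of all tested genes were 15.6% lower and 16.2% higher in WM164, and 15.3% and 14.6% in SKMEL28 (edgeR). Some of these genes were called lower in WM164 and higher in SKMEL28, or the reverse. Every called fold above 2 was a fall. Their median log2 fold changes were -0.05, -0.10 and -0.09. SLC7A11, the cystine importer that feeds glutathione synthesis, fell most, from 68.9 ± 5.00 to 17.3 ± 0.873 CPM in SKMEL28 (log2 fold change -1.99, SE 0.08, adjusted p = 5.01e-11, edgeR), and it fell by 0.62 in WM164. The other genes with a fold above 2 were low, GSTM2 in WM164 (-1.66, at under 1 CPM) and TRIM16L in SKMEL28 (-1.23, SE 0.40, adjusted p = 0.0291, edgeR). TRIM16L was there at 1.68 CPM with GFP and 0.714 CPM with MAFG.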

How the data were processed

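RNA-seq of 18 libraries was analysed from the gene table of raw counts and the table of TPM values that the authors deposited. Per the submitters' processing notes, reads were trimmed with cutadapt (version 1.8.1) and handled with STAR (version 2.7.7a), RSEM (version 1.3.0) and DESeq2 on GRCh38, and the study's methods state that uniquely aligned reads were counted with featureCounts. The deposited counts are not normalized, and the deposited TPM values are scaled by the authors to gene length and to 1000000 per library. The annotation release is not given in the sources used here. The labels and the methods name different library kits, so whether counting used strand is not settled, and overlaps with genes on the opposite strand are given beside the results.

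Each line was tested alone with edgeR (version 4.0.16, R version 4.3.3; TMM, filterByExpr, quasi-likelihood F test, 6 libraries), with Benjamini-Hochberg adjustment over all tested genes and a threshold of 0.05. Differences between lines came from one model of 18 libraries, and CPM between lines are scaled over all 18. Alternatives were DESeq2 (version 1.42.0), its size factors, the model of 18 libraries, other count filters, limma (version 3.58.1) on log2(TPM + 1) and log2(TPM + 0.1) of genes with at least 1 TPM in 3 libraries, a replicate block and single libraries left out. The scripts were tested on simulated data. Genes described library by library, and the regulators and other antioxidant genes named (a fold above 2, plus NFE2L2, KEAP1 and BACH1, with BACH2 falling under the first), followed a fixed rule, and every one of the 37 genes is named. The genes, groups and lists were chosen with earlier results of these data known. Counting precision is limited by totals of 20122172 to 39025042 counts per library. An exact permutation test of 3 against 3 libraries cannot give a p below 0.1 and was not used.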

Additional observations from a re-analysis of the deposited data

Results flagged for a closer look

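Responses to MAFG that differed between lines, by the contrast of log2 fold changes in the edgeR model of 18 libraries, are given as the response of the first line minus that of the second, with the adjusted p from edgeR.

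Between WM164 and SKMEL28 the difference was 1.04 for NQO1 (adjusted p = 1.10e-06), 0.95 for PRDX1 (1.17e-05), 0.85 for ME1 (9.84e-05) and 0.39 for SQSTM1 (0.0252). It was -0.78 for UGDH (5.84e-05), -0.67 for FTH1 (0.00122), -0.59 for TXN (0.00433) and -0.79 for CBR3 (0.0432). The value of 4.73 for GSTM3 (0.0399) rests on 0 to 4 counts per library in WM164 and is no measure of size.

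Between WM164 and A375 it was 0.53 for PRDX6 (0.00274), 0.53 for ABCC4 (0.0135) and 0.52 for ME1 (0.0105). It was -0.74 for BLVRB (0.00301), -0.60 for FTH1 (0.00397), -0.59 for GSR (0.00809), -0.38 for PGD (0.0191) and -0.48 for GSTP1 (0.0455).

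Between SKMEL28 and A375 it was 0.56 for UGDH (0.00248) and 0.32 for TXNRD1 (0.0382). It was -0.97 for NQO1 (3.53e-06), -0.72 for PRDX1 (0.000337), -0.62 for BLVRB (0.013), -0.59 for GSTP1 (0.0144), -0.43 for SQSTM1 (0.0177) and -0.45 for GSR (0.0477).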

How the results depend on the processing

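With a fold above 2 required, 0 targets were higher and 0 lower in WM164, 0 higher and 2 lower in SKMEL28 and 0 lower in A375, the responses of 2, 0 and 0 targets differed (WM164 against SKMEL28, WM164 against A375 and SKMEL28 against A375), and GFP levels of 11, 18 and 15. On log2(TPM + 1) and log2(TPM + 0.1) there were 6 lower and 4 higher in WM164, 1 higher in SKMEL28 and 0 lower in A375, and on log2(TPM + 0.1) 5 responses differed between WM164 and A375 and 5 between SKMEL28 and A375. On log2(TPM + 1) with no filter, 4 were lower in WM164, 10 lower and 1 higher in SKMEL28 and 0 lower in A375, and 5, 4 and 5 responses differed. Where no share of all genes is given above, the counts of this paragraph show only how the calls of targets moved with the processing. With centred TPM, added after the data were seen, 11 were lower in SKMEL28, 0 in A375, and 4 responses differed between SKMEL28 and A375. In A375, 2 were lower by DESeq2, 3 in the model of 18 libraries and 2 with no count filter. GSR in WM164 lay at 0.0145 on log2(TPM + 0.1) and at 0.0139 on log2(TPM + 1) with and without the filter, and the cause of these changes was not tested. MAFG in A375 passed by DESeq2 (0.80), in the model of 18 libraries (0.81), with no count filter (0.80) and on the TPM scales (2.33 and 2.55, centred 2.43).

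With single libraries left out, lowered targets numbered 14 to 16 in WM164, 12 to 18 in SKMEL28 and 0 to 3 in A375, and raised targets 2 to 5 in WM164, 3 in SKMEL28 and 0 in A375, with 5 without the first GFP library of WM164. Differing responses numbered 6 to 8, 6 to 11 and 5 to 10, differing GFP levels 26 to 28, 29 to 31 and 29 to 32, and MAFG lay between 0.69 and 0.97 in A375. No share of all genes is given for these fits, and the ranges show only how far the counts of targets moved. Of 40 called values, 13 in WM164 and 14 in SKMEL28 kept their call under every count setting and every left-out library, and 0 in A375.

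Same-numbered libraries did not deviate together (r from -0.04 to 0.03 over 9 pairs), so the values show no sign of pairing. They cannot show whether same-numbered cultures were handled together. With the replicate block, 16 were lower and 3 higher in WM164, 19 lower and 4 higher in SKMEL28 and 0 lower in A375, and the responses of 5 targets differed between WM164 and A375 and 4 between SKMEL28 and A375. Shares of all genes are not given for the block, so these counts show only how the calls of targets moved. The median log2 fold change of the targets with the block was -0.27 (WM164), -0.23 (SKMEL28) and -0.12 (A375). That of all tested genes was -0.0009, -0.0093 and -0.0076.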
